A study of Mus musculus with 4 samples.

Results

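Contactins and the contactin-associated proteins (Caspr) were followed through adult neurogenesis in the mouse dentate gyrus with single-nucleus RNA sequencing. The genes were taken as a list of names, 10 of the 45706 features counted. No measured value entered the rule, but the list was chosen with earlier results of these data known. The list held 5 contactins (Cntn1, Cntn3, Cntn4, Cntn5 and Cntn6) and 5 Caspr genes (Cntnap2, Cntnap4, Cntnap5a, Cntnap5b and Cntnap5c). The question was at which step of granule cell development, and in which glia, each member was transcribed.

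Nuclei came from mice carrying the reporter CAG-floxStop-Sun1/sfGFP on a C57BL/6J background, of both sexes, for which the methods give an age of 6 to 8 weeks without saying at which step. Every mouse carried it with an inducible Cre and received tamoxifen (TAM), which switches on a green nuclear envelope tag in the recombined cells and in their progeny, so there was no untreated group. Green nuclei were sorted from left dentate gyri at week 1 (library w1), week 2 (w2), week 4 (w4) or week 8 (w8) after TAM. Each library was 1 pool of 4 mice, hence no week had a replicate and weeks are not tested against each other. The label was not restricted to the granule cell lineage, and the sort also held glia, pericytes and, at w1, 17 nuclei in a mature granule cell cluster.

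Contactins are adhesion molecules with immunoglobulin and fibronectin domains that are held in the outer membrane by a lipid anchor. Caspr proteins are transmembrane relatives of neurexins. The best known pairs of both families organise the contact between axon and myelin and the potassium channels beside it, and many members bind partners on other neurons during axon growth and synapse formation. Adult-born granule cells (aGCs) arise from radial glia-like cells (RGL) through dividing progenitors (NPC), neuroblasts (NB1, NB2), immature cells (GCimm1, GCimm2) and young cells (GCyoung) to mature cells (GCmat1, GCmat2). These names, with Astro for astrocytes, OPC for oligodendrocyte precursors, Oligo for oligodendrocytes and Peri for pericytes, are the deposited cluster names. There were 13 clusters with 14367 nuclei.

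Most members are very long genes. In GRCm38, Cntnap2 spans 2245 kb of chromosome 6, Cntn5 1244 kb of chromosome 9 and Cntn4 1022 kb of chromosome 6, and the shortest member, Cntn1, spans 290.8 kb of chromosome 15. Cntn3 (chr6:102162655-102573101, minus strand), Cntn6 (chr6:104492790-104863406, plus strand) and Cntn4 (chr6:105677660-106699310, plus strand) lie in 1 stretch of chromosome 6, and Cntnap2 lies elsewhere on it (chr6:45059357-47304213, plus strand). The others are Cntn1 (chr15:92051165-92341967, plus strand), Cntn5 (chr9:9660891-10904775, minus strand), Cntnap4 (chr8:112570043-112882717, plus strand), Cntnap5a (chr1:115684756-116587323, plus strand), Cntnap5b (chr1:99772765-100485942, plus strand) and Cntnap5c (chr17:57769570-58410355, plus strand). Other annotated genes on the same strand covered 2.58% of the span of Cntnap2 and less than 1% of that of each other member (at most 0.751%, Cntn3). Levels are CPM, the UMIs of the gene scaled to 1e+06 UMIs of the same nuclei, from exonic and intronic reads. Since long genes collect more intronic reads, genes are ranked within a cluster per 100 kb of span. Sums over members and total UMIs are not divided by span.

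By coding sequence, Cntnap5a, Cntnap5b and Cntnap5c are the only members with near-identical copies in the list. Their coding sequences were 89.7% to 90.3% identical and shared 43 to 57 windows of 50 bases between their transcripts, whereas every other pair tested within a family was 56.8% to 66.5% identical and shared 0. The last 90 coding bases, all in exon 24 of 24 on the plus strand (GRCm38: chr1:116580585-116580674 for Cntnap5a, chr1:100484612-100484701 for Cntnap5b and chr17:58410253-58410342 for Cntnap5c), show how alike they are. Capitals mark the 16 positions that are not the same in all 3 genes.
Cntnap5a: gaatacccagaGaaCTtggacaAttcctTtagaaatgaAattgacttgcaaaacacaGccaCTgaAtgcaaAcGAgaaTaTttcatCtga
Cntnap5b: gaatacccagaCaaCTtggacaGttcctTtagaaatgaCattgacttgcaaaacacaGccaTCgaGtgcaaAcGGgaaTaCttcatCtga
Cntnap5c: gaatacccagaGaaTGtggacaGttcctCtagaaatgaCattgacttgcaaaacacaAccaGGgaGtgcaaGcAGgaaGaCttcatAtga
Reads that mapped to more than 1 place were left out by the authors, and how many reads of these 3 genes were lost in this way was not tested.

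The 4 libraries held between 13227971 (w1) and 28595331 (w8) UMIs in the kept nuclei, with a median of 4369 to 7703.5 UMIs per nucleus. Glial clusters carried the markers of their names: Grin2c was at 307 CPM in Astro and at most 2.79 CPM elsewhere, Mog at 1999 CPM in Oligo and at most 21.2 CPM elsewhere, and Cspg4 at 348 CPM in OPC and at most 22.8 CPM elsewhere. In the lineage, Top2a was highest in NPC (450 CPM), Dcx in NB1 (455 CPM) and Calb1 in GCmat1 (122 CPM). Other neuronal values were mixed. Calb1 was at 32.0 CPM in GCmat2, and Rbfox3 was higher in NPC (615 CPM) than in GCimm1 (535 CPM). Prox1 was at 867 CPM in NB1, 311 CPM in GCmat2 and 200 CPM in Oligo. Of the RGL markers, Hopx (309 CPM) and Notch2 (1010 CPM) were highest in RGL, but Gfap was higher in Astro (203 CPM) than in RGL (115 CPM). Of 4 interneuron markers, Gad2, Slc32a1 and Lhx6 reached at most 12.04 CPM and Gad1 at most 89.6 CPM, in GCimm1. Pairs of libraries shared 1 to 6 barcodes among kept nuclei. In Oligo, taken below as the background for members of the neuronal clusters, Cntn5 was at 9.10 CPM, Cntnap5a at 31.9 CPM and Cntnap5b at 4.55 CPM, pooled over libraries and resting on 2, 7 and 1 UMIs, whose source was not tested.

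The members were low in RGL and NPC. By pooled level they were highest at different steps of aGC development, in OPC or, for Cntn3, in Oligo. There Cntn3 held 123 CPM, against 105 CPM in OPC and 93.6 CPM in GCmat1. As means of libraries with equal weight, Cntn3 held 97.5 CPM in Oligo, 107 CPM in OPC and 116 CPM in GCmat1. The library ranges of these clusters overlapped. In RGL, pooled over libraries, all 10 members together held 177 CPM (95% counting interval 166–187) and in NPC 188 CPM (161–219). The sum was 3087 CPM in NB1, 6059 CPM in GCimm1, 7624 CPM in GCimm2 and 4865 CPM in GCmat1. Long genes weigh more in such sums, and a few members carried them. Cntnap5a alone held 1941 CPM in NB1 and 3613 CPM in GCimm2, and Cntn5 held 503 CPM in NB1 and 2076 CPM in GCyoung. Intervals and floors throughout cover counting error only.

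**Figure D1:**
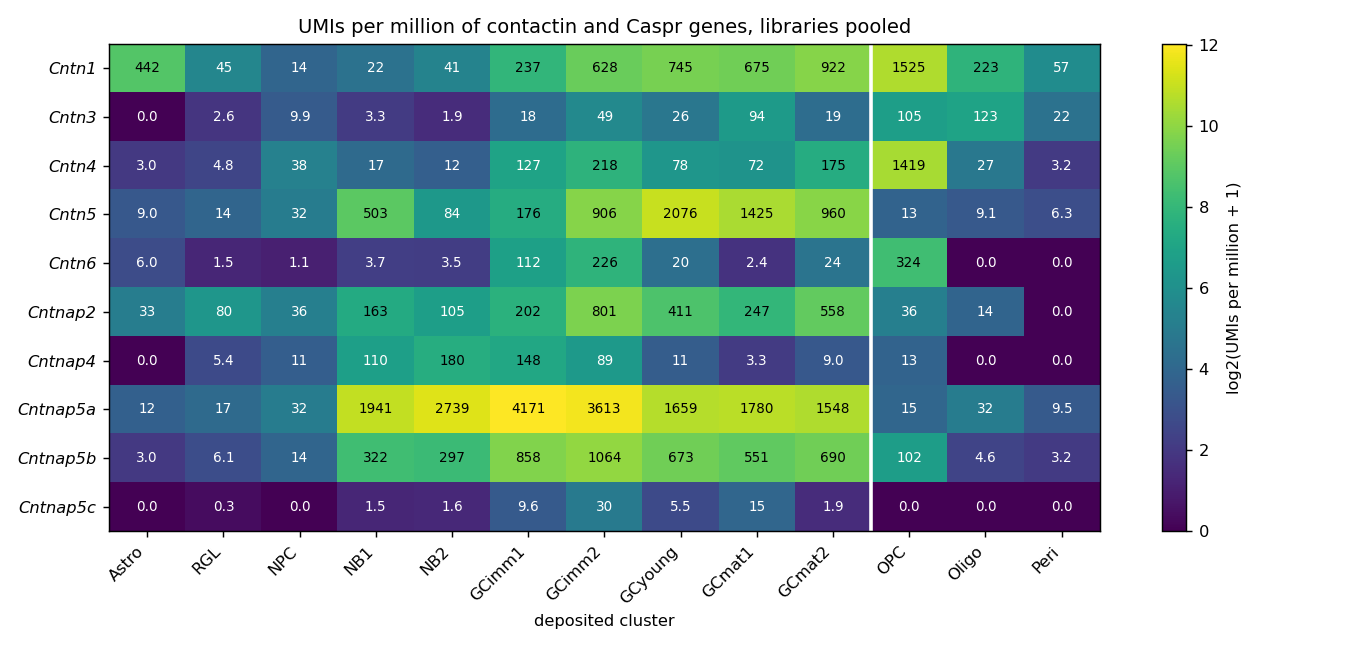
Level of each of the 10 members (rows) in each of the 13 clusters (columns), libraries pooled. Colour is log2(CPM + 1) and the printed number is CPM. Brighter cells hold higher levels. The Caspr genes Cntnap5a and Cntnap5b are bright from NB1 to GCmat2, and Cntn5 is brightest in GCyoung (2076 CPM). Cntn1, Cntn4 and Cntn6 are brightest in OPC (1525, 1419 and 324 CPM).

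Per 100 kb of span, Cntnap5a held the highest level of the members in NB1, NB2, GCimm1 and GCimm2, with 462 CPM per 100 kb in GCimm1 against 120 CPM per 100 kb for Cntnap5b and 81.7 CPM per 100 kb for Cntn1. In GCyoung the first place belonged to Cntn1 with 256 CPM per 100 kb, followed by Cntnap5a with 184 and Cntn5 with 167 CPM per 100 kb. Cntn1 was also first in OPC, with 525 CPM per 100 kb, where Cntn4 (139) and Cntn6 (87.5) followed.

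Changes between clusters were tested with edgeR on UMIs summed per library and cluster (at least 10 nuclei), with a term for the library. Some sums were small: NB2 of w4 had 18 nuclei (78060 UMIs), NPC of w4 22 (76298 UMIs) and GCimm2 of w8 28 (150112 UMIs). Low levels in these sums rest on few UMIs, and counts of libraries and overlaps of ranges include them. A gene was called when its fold change was at least 1.5 and its adjusted p, over all genes tested, at most 0.05. Clusters were made from the same expression values, so these p-values describe how clusters differ, and sums of 1 cluster come from libraries of different weeks, so that their spread includes age. From RGL to NPC, 1 member was higher and 2 were lower, while 29.5% of 13513 genes were called (13.7% higher, 15.9% lower). Without w4, Cntn5 (1.34 on the log2 scale) and Cntnap5b (1.93) were called higher as well. From NPC to NB1, 5 members were higher and 0 lower, against 29.3% of all genes (14.7% higher, 14.6% lower). Calls of lower level appeared there for Cntn3 without w2 (−2.42, adjusted p = 0.0218, against −1.35 with all libraries) and for Cntn4 without w4 (−1.11, adjusted p = 0.0159). From NB1 to NB2, 1 was higher and 1 lower, against 2.94% (1.81% higher, 1.13% lower), with a median log2 fold change of 0.10 for the members and −0.04 over all genes. No median is given for the steps into NPC and out of it, where Cntnap5c lay in both clusters at or under the CPM that 3 UMIs make in NPC.

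The step into immature cells moved most members. From NB1 to GCimm1, 7 members were higher and 1 lower, against 12.5% of all genes (7.76% higher, 4.75% lower), and the members' median log2 fold change was 2.04 against −0.01 over all genes. From NB2 to GCimm1, 8 were higher and 0 lower, against 7.59% (4.53% higher, 3.06% lower), with medians of 1.85 and 0.04. From GCimm1 to GCimm2, 7 were higher and 0 lower, against 9.43% (6.52% higher, 2.91% lower), with medians of 1.42 and −0.02. Both counts rested in part on w2: without it 5 members were called, and 293 genes higher and 117 lower of 12503.

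Later steps mixed rises and falls. From GCimm2 to GCyoung, 1 member was higher and 5 lower, against 18.9% of all genes (9.27% higher, 9.62% lower), with a median of −0.69 against 0.03. Without w4, 3 members were called, and over all genes 274 higher and 213 lower of 13930. From GCyoung to GCmat1, 2 were higher and 3 lower, against 3.85% (1.6% higher, 2.25% lower), with medians of −0.24 and −0.0049. From GCmat1 to GCmat2, 3 were higher and 2 lower, against 7.3% (3.01% higher, 4.28% lower), with medians of 0.24 and −0.14. Over the whole way from NB1 to GCmat1, 6 were higher and 1 lower, against 40.1% (20.2% higher, 19.9% lower), with medians of 1.81 and −0.04.

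**Figure D2:**
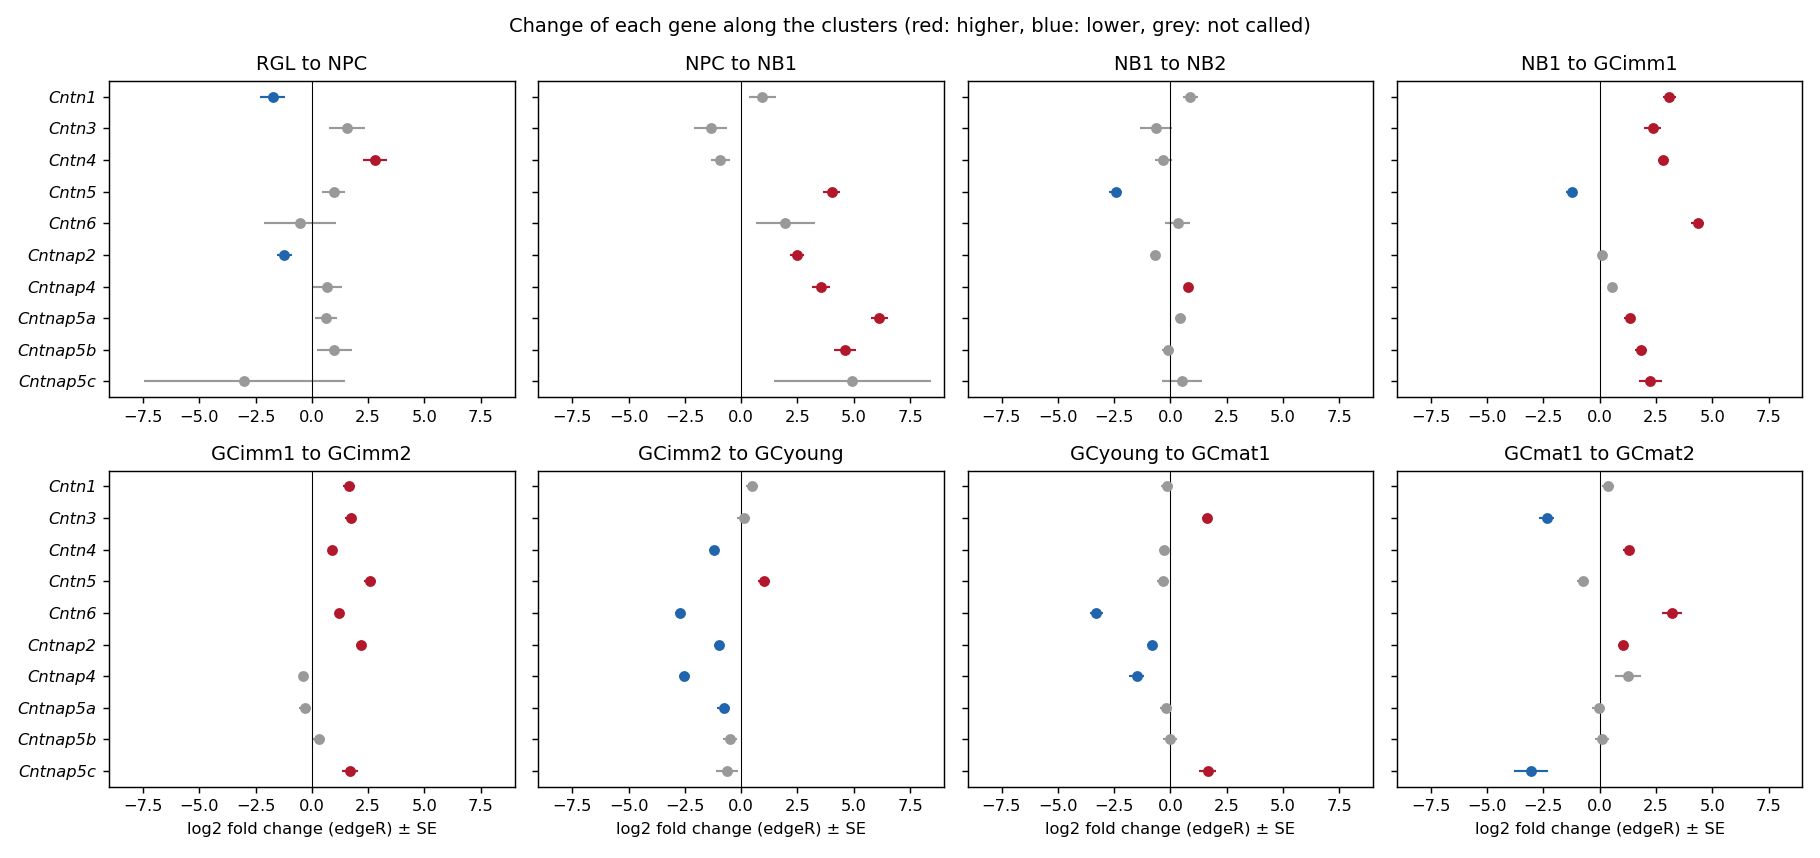
Log2 fold change (points) with its standard error (bars) of each member in 8 comparisons of clusters, from edgeR fits. Red points were called higher in the second cluster, blue points lower, and grey points were not called. From NB1 to GCimm1 7 of 10 points are red, and from GCimm2 to GCyoung 5 of 10 are blue.

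Cntn5 had 2 separate peaks along the way. This contactin is known as a neural adhesion molecule that binds amyloid precursor-like proteins. It stood at 28.1, 37.0 and 39.3 CPM in NPC of w1, w2 and w4, and at 547, 450 and 370 CPM in NB1 of the same libraries. In NB2 it stood at 87.1, 78.3 and 25.6 CPM, and in GCimm1 at 105, 159 and 312 CPM. The ranges of NB1 and NB2 did not overlap, nor did those of NB1 and GCimm1. By sex, GCimm1 of w2 held 125 CPM in female and 263 CPM in male nuclei, below NB1 (412 and 504 CPM). In w4, GCimm1 held 377 and 190 CPM against 346 and 416 CPM in NB1, so that GCimm1 was not lower in female nuclei there. Cntn5 then climbed to 693, 1327 and 1552 CPM in GCimm2 of w2, w4 and w8, and to 2074 and 2097 CPM in GCyoung of w4 and w8. In GCimm2 of w4, female nuclei held 1684 CPM and male nuclei 770 CPM. GCmat1 held 1691, 1725 and 1382 CPM in w1, w4 and w8, below both GCyoung values.

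Tested across these sums, Cntn5 rose from NPC to NB1 by 4.02 ± 0.38 on the log2 scale (SE, edgeR adjusted p = 7.67e-13) and was higher in 3 of 3 libraries. It was lower in NB2 than in NB1 by 2.44 ± 0.29 (log2 fold change −2.44, adjusted p = 9.33e-09, lower in 3 of 3 libraries). The change from GCimm1 to GCimm2 was 2.56 ± 0.26 (adjusted p = 8.5e-11, higher in 2 of 2 libraries). The change from NB2 to GCimm1 was smaller, 1.18 ± 0.29 (adjusted p = 0.00384), and missed the threshold without w2 (1.27, adjusted p = 0.0604) and without w4 (0.77, adjusted p = 0.143). Likewise the rise from GCimm2 to GCyoung of 1.02 ± 0.27 (adjusted p = 0.00378) missed it without w2 (0.87, adjusted p = 0.0707) and without w4 (1.01, adjusted p = 0.0908). From GCyoung to GCmat1 the change was −0.32 ± 0.27 and was not called. With DESeq2 in place of edgeR, the step from GCimm2 to GCyoung also missed the threshold (adjusted p = 0.172). Female nuclei alone missed it there too (0.70, edgeR adjusted p = 0.127). From NB2 to GCimm1, female nuclei alone (1.04, edgeR adjusted p = 0.249) and male nuclei alone (1.07, adjusted p = 0.0698) missed it.

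Pseudo-time separated the neuroblast clusters further. The authors' pseudo-time orders nuclei from RGL to GCmat1, and was cut into 12 equal bins, of which those with at least 20 nuclei are given. Between 13.18 and 15.82, 3 clusters overlap. There Cntn5 was at 703 CPM in NB1, 102 CPM in NB2 and 282 CPM in GCimm1. NB1 and NB2 stood at 787 and 104 CPM in w1 and at 614 and 99.8 CPM in w2, the 2 libraries with at least 20 nuclei of both. Within NB1 the level grew with pseudo-time, from 204 through 355 to 703 CPM over 3 consecutive bins, and it grew in each library that filled the bins. Among nuclei at the same pseudo-time, NB1 thus held the higher level; these values are descriptions, since pseudo-time and clusters both come from the expression values.

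**Figure D3:**
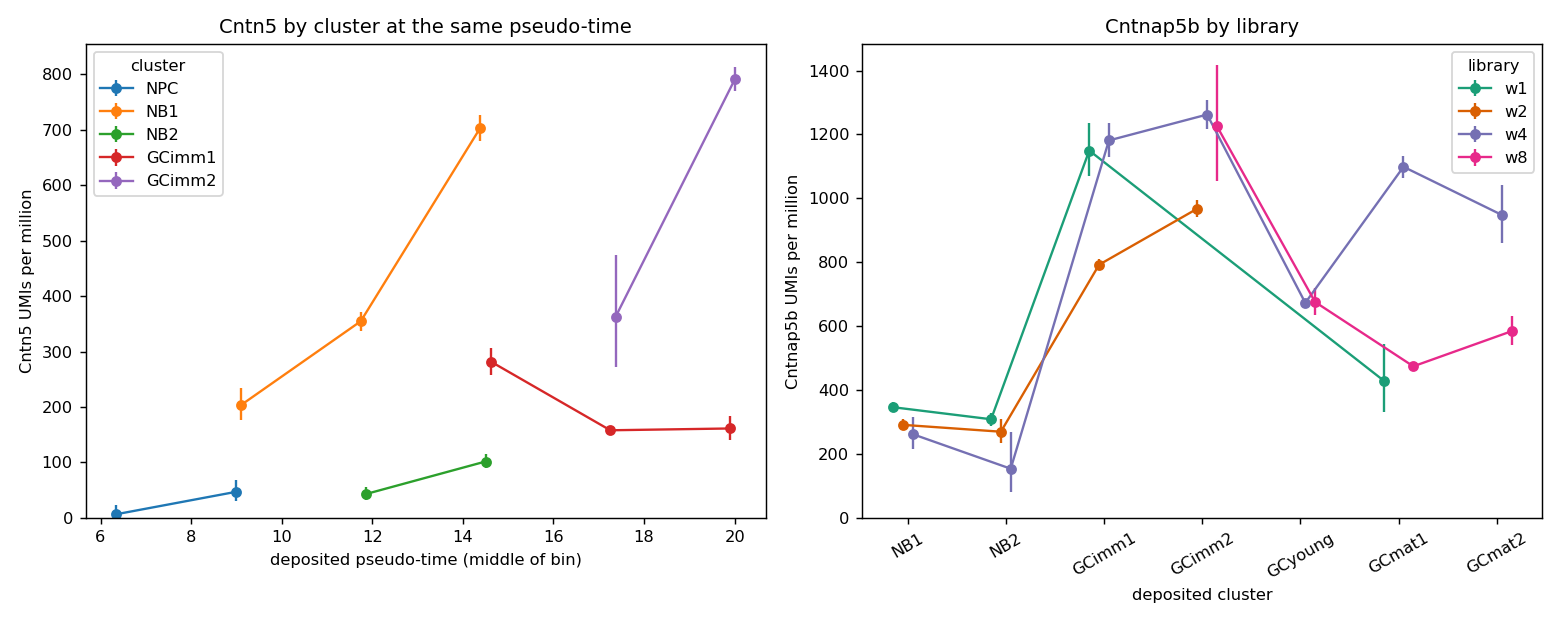
Left, Cntn5 level (CPM) by pseudo-time bin for NPC, NB1, NB2, GCimm1 and GCimm2, libraries pooled, with 95% counting intervals. NB1 reaches 703 CPM in the bin from 13.18 to 15.82, where NB2 is at 102 CPM. Right, Cntnap5b level (CPM) by library from NB1 to GCmat2 with 95% counting intervals. In GCmat1 the w4 point (1099 CPM) lies above the w8 point (474 CPM), while in GCyoung both lie together (673 and 675 CPM).

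Cntn1, the contactin of the axon beside myelinated contacts, rose late and stayed. It was at 21.4, 21.3 and 47.1 CPM in NB1 of w1, w2 and w4, and at 74.8, 239 and 292 CPM in GCimm1. GCimm2 of w2, w4 and w8 held 633, 610 and 726 CPM, and GCyoung of w4 and w8 held 741 and 778 CPM. No library of GCimm1 reached any library of GCimm2. The rise was 3.09 ± 0.29 on the log2 scale from NB1 to GCimm1 (edgeR adjusted p = 2.3e-12, 3 of 3 libraries) and 1.65 ± 0.25 from GCimm1 to GCimm2 (adjusted p = 1.07e-06, 2 of 2 libraries). Afterwards the changes were not called: 0.47 ± 0.27 to GCyoung, −0.15 ± 0.26 to GCmat1 and 0.37 ± 0.27 from there to GCmat2.

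In the lineage's glial cells Cntn1 separated astrocytes from RGL. It stood at 613, 383 and 271 CPM in Astro of w1, w2 and w4, and at 30.4, 55.0, 58.2 and 22.3 CPM in RGL of the 4 libraries, with no overlap. The difference from Astro to RGL was −3.38 ± 0.32 on the log2 scale (edgeR adjusted p = 2.89e-12, lower in 3 of 3 libraries), and −2.67 without w1. It was the only member called in that comparison, with 0 higher, while 9.58% of all genes were called (4.77% higher, 4.82% lower). Of the other 9 members, 6 were at or under the floor of 3 UMIs in Astro and no more than that level in RGL (Cntn3, Cntn4, Cntn6, Cntnap4, Cntnap5b and Cntnap5c). The Astro sums rest on 67 nuclei and 335189 UMIs, and differences in these low members were not detectable at that depth.

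Cntn4 and Cntn6, neighbours on chromosome 6 and relatives that act as neural adhesion molecules, moved together in immature cells. Cntn6 stood at 2.20, 5.87 and 4.48 CPM in NB1 of w1, w2 and w4, at 22.9, 121 and 84.9 CPM in GCimm1, and at 261, 150 and 207 CPM in GCimm2 of w2, w4 and w8. It then dropped to 17.7 and 34.9 CPM in GCyoung and to 0, 2.50 and 2.45 CPM in GCmat1 of w1, w4 and w8. Each group of values lay apart from the next. In the fit Cntn6 rose by 4.34 ± 0.28 from NB1 to GCimm1 (log2, edgeR adjusted p = 1.35e-17) and by 1.199 ± 0.17 to GCimm2 (adjusted p = 4.54e-07; DESeq2 adjusted p = 0.0774). From NB2 to GCimm1 the change was 4.03 ± 0.38 (adjusted p = 5.64e-12), and 5.78 without w1 or 3.05 without w2. Its log2 fold change was −2.71 ± 0.22 from GCimm2 to GCyoung (adjusted p = 4.79e-14; −2.12 without w4) and −3.29 ± 0.30 from GCyoung to GCmat1 (adjusted p = 1.98e-11; −4.32 with only the GCmat1 nuclei that have a pseudo-time), lower in 2 of 2 libraries each time. Cntn6 was transient: over the whole way from NB1 to GCmat1 its change was −0.46 ± 0.44 and was not called, although with that restriction it was −1.48 (adjusted p = 0.0176).

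Cntn4 followed a milder course. GCimm1 held 79.4, 128 and 140 CPM in w1, w2 and w4, against 14.9, 18.6 and 22.4 CPM in NB1. GCimm2 of w2, w4 and w8 held 216, 221 and 246 CPM, and GCyoung 75.1 and 92.7 CPM. The rise from NB1 to GCimm1 was 2.81 ± 0.25 on the log2 scale (edgeR adjusted p = 2.51e-13). From NB2 it was 3.14 ± 0.33 (adjusted p = 1.36e-10; 2.43 without w1 and 3.91 without w2). The further rise to GCimm2 was 0.91 ± 0.20 (adjusted p = 0.000901; 0.92, adjusted p = 0.0667, without w2), and the change to GCyoung was −1.2 ± 0.24 (adjusted p = 8.26e-05; −0.76, adjusted p = 0.366, without w4). An earlier call, higher in NPC than in RGL by 2.80 ± 0.53 (adjusted p = 2.99e-05), came from 54.1 CPM in w1 and 24.6 CPM in w2, with 0 UMIs in w4. Without w1 that value was 1.22 (adjusted p = 0.264), and without w4 3.46. DESeq2 did not call the steps from GCimm1 to GCimm2 (adjusted p = 0.293) and from GCimm2 to GCyoung (adjusted p = 0.205).

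Both genes were higher in GCmat2 than in GCmat1. The paper proposes that GCmat2 neurons had probably been active before they were isolated, and none of the 209 nuclei has a pseudo-time. Cntn4 had not gone in GCmat1: its change from GCyoung was −0.28 ± 0.23 on the log2 scale and was not called. Cntn6 was at 24.3 and 23.5 CPM in GCmat2 of w4 and w8, and Cntn4 at 177 and 174 CPM. From GCmat1 to GCmat2 Cntn6 rose by 3.21 ± 0.43 on the log2 scale (edgeR adjusted p = 1.07e-07) and Cntn4 by 1.297 ± 0.25 (adjusted p = 0.000114), each higher in 2 of 2 libraries. DESeq2 did not call the change of Cntn4 (adjusted p = 0.352), and without the GCmat1 nuclei that lack a pseudo-time the change of Cntn6 was 4.29. Within GCmat1 of w8, the 216 nuclei without a pseudo-time held 246 CPM of Cntn4 and 17.5 CPM of Cntn6. The 2711 with a pseudo-time held 55.7 and 0.872 CPM. The study's methods leave GCmat1 nuclei rich in ventral genes out of pseudo-time, and whether these nuclei are the same ones was not tested. Their counting intervals were far apart for both genes (227–267 against 52.7–58.9 CPM for Cntn4).

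The start regions of both genes are shown because the genes moved together. RefSeq windows on GRCm38.p6 run from 250 bases before to 50 after the start, both on the plus strand (Cntn4 chr6:106118692-106118991, Cntn6 chr6:104492794-104493093). The Cntn4 window is that of an internal start, far inside the span given above and not at its first base, and the Cntn6 window begins just after the first base of its span. Capitals mark CAGCTG, which reads the same on both strands.
Cntn4: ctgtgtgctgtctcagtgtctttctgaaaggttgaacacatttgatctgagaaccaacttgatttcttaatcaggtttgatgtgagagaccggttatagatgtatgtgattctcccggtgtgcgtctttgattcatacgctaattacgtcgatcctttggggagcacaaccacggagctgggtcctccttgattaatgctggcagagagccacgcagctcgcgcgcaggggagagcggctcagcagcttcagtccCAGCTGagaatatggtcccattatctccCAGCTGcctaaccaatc
Cntn6: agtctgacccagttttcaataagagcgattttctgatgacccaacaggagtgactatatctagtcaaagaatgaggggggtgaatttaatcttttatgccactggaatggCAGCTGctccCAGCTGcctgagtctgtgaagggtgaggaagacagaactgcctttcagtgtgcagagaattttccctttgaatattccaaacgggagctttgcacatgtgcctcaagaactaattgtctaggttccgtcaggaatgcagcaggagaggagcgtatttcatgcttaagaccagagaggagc
Each window held 2 copies of CAGCTG, in a table where 16.3% of 32851 windows hold at least 1. Another listed start of Cntn4 (chr6:106118515-106118814) held 1, and the windows of the other 5 members in the table held 0. Also searched, on both strands and without overlap with CAGCTG, were CAGATG or CATCTG (17.15% of all windows), CATTGT or ACAATG (12.57%) and CGCATGCGC (1.379%), none of which was in either window shown. Such a match describes letters and is no evidence of binding.

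Cntn3, the fifth contactin, was the one that rose last. It stood at 3.05, 19.1 and 14.8 CPM in GCimm1 of w1, w2 and w4, at 59.7, 28.5 and 13.3 CPM in GCimm2 of w2, w4 and w8, and at 25.8 and 30.7 CPM in GCyoung of w4 and w8. GCmat1 held 186, 67.1 and 96.5 CPM in w1, w4 and w8, and GCmat2 13.3 and 20.8 CPM. The values of GCmat1 lay above those of GCyoung and of GCmat2 without overlap. The change from GCyoung to GCmat1 was 1.62 ± 0.22 on the log2 scale (edgeR adjusted p = 6.61e-07) and that from GCmat1 to GCmat2 −2.36 ± 0.33 (adjusted p = 4.9e-07; −4.28 with 2000 UMIs drawn per nucleus), in 2 of 2 libraries each. Cntn3 also rose from NB1 to GCimm1, by 2.34 ± 0.36 (adjusted p = 1.13e-06), and from GCimm1 to GCimm2, by 1.73 ± 0.25 (adjusted p = 4.85e-07). With DESeq2, the steps from GCyoung to GCmat1 (adjusted p = 0.110) and from GCimm1 to GCimm2 (adjusted p = 0.0609) were not called.

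**Figure D4:**
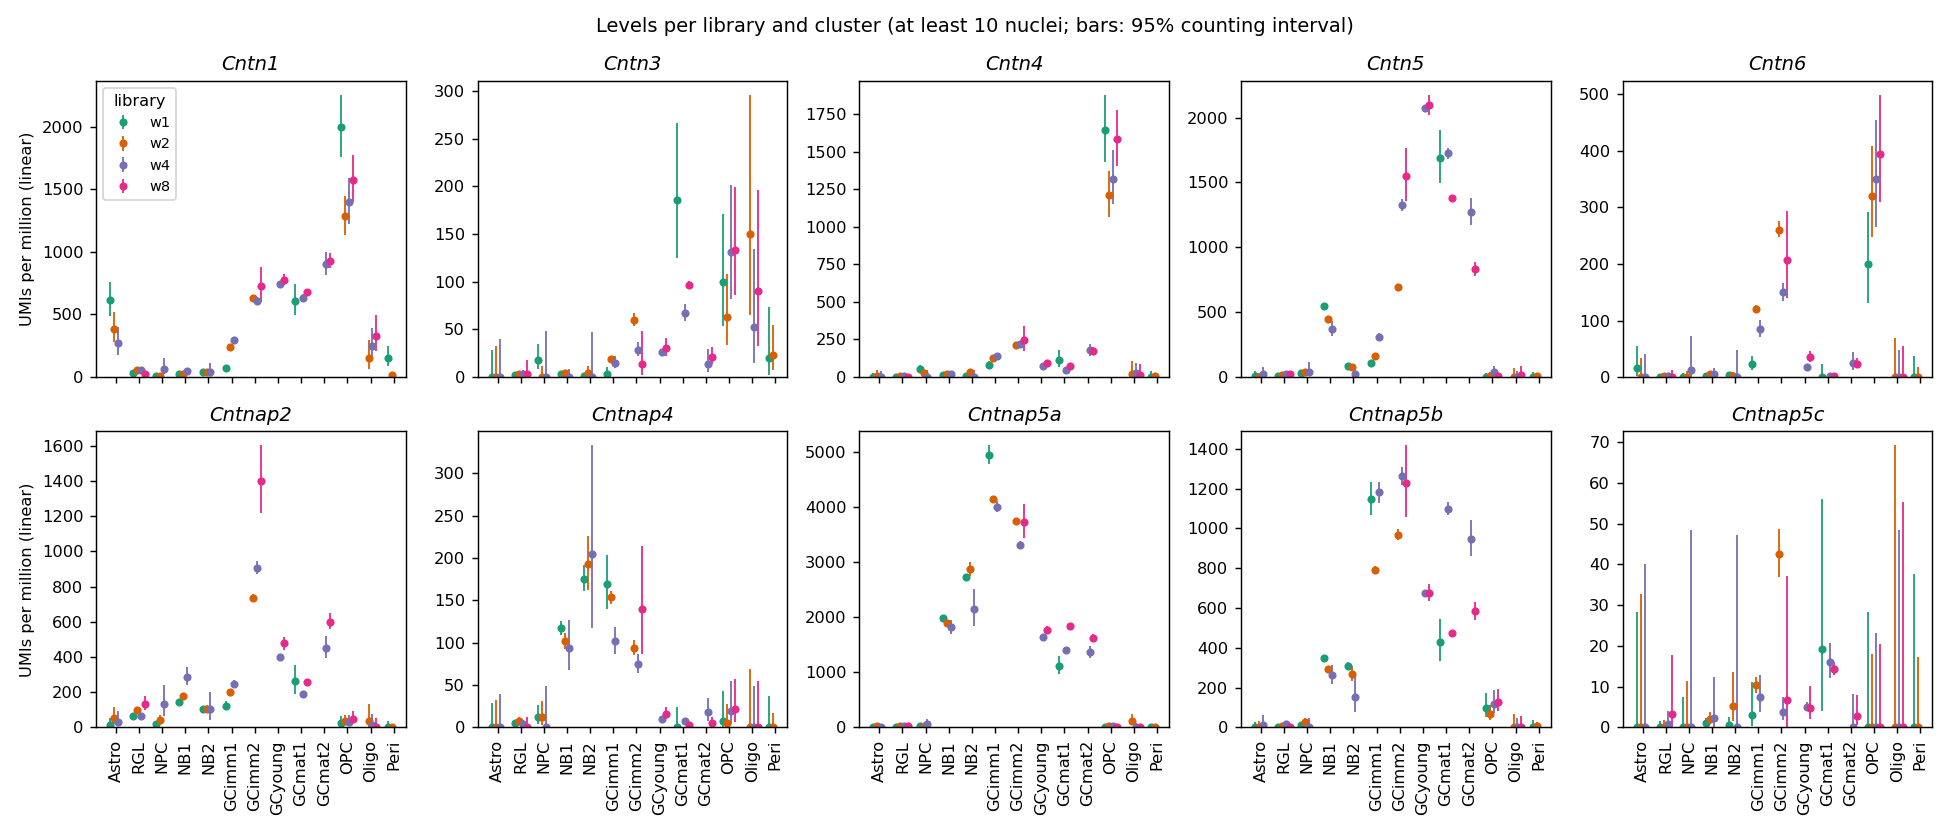
Level (CPM, 1 panel per member, each with its own axis) in every cluster and library with at least 10 nuclei, with 95% counting intervals. Points of 1 cluster are libraries of different weeks. Cntn5 lies at 370 to 547 CPM in NB1 and at 25.6 to 87.1 CPM in NB2, and Cntn6 at 150 to 261 CPM in GCimm2 and at 0 to 2.50 CPM in GCmat1.

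Among the Caspr genes, Cntnap5a switched on at the step from progenitor to neuroblast. Cntnap5a stood at 26.1, 30.8 and 65.5 CPM in NPC of w1, w2 and w4, and at 1986, 1885 and 1824 CPM in NB1. NB2 held 2719, 2872 and 2152 CPM, and GCimm1 4940, 4151 and 3999 CPM, so that each of these clusters lay above the one before without overlap. From NB1 to NB2, however, the change of 0.43 ± 0.25 on the log2 scale was not called. The rise from NPC to NB1 was 6.14 ± 0.38 on the log2 scale (edgeR adjusted p = 6.03e-19, higher in 3 of 3 libraries). From NB1 to GCimm1 it was a further 1.32 ± 0.25 (adjusted p = 4.16e-05).

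The later levels of Cntnap5a were lower. GCimm2 of w2, w4 and w8 held 3752, 3307 and 3731 CPM, GCyoung of w4 and w8 1646 and 1768 CPM, and GCmat1 1121, 1402 and 1838 CPM in w1, w4 and w8. The change from GCimm2 to GCyoung was −0.77 ± 0.28 on the log2 scale (edgeR adjusted p = 0.0462), lower in 2 of 2 libraries, and it missed the threshold without w2 (−0.73), without w4 (−0.999) and without w8 (−0.76). The rise from NB2 to GCimm1 of 0.90 ± 0.25 (adjusted p = 0.0109) likewise missed it without w2 (1.002), without w4 (0.76) and with DESeq2 (adjusted p = 0.0551). In depth-matched nuclei (2000 UMIs drawn from each), a UMI of Cntnap5a was found in 73.8% of NB1, 98.9% of GCimm1 and 92.5% of GCmat1 nuclei, against 4.44% of Oligo, which serve as background. Undrawn, the shares were 80.5%, 99.7%, 99.8% and 8.89% at median depths of 4057.5, 5045.5, 8138 and 4801 UMIs.

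Cntnap5b shared the early course. It stood at 10.02, 24.6 and 0 CPM in NPC of w1, w2 and w4, at 346, 291 and 262 CPM in NB1, and at 1150, 792 and 1181 CPM in GCimm1. GCimm2 of w2, w4 and w8 held 968, 1262 and 1226 CPM, within reach of GCimm1. Cntnap5b rose by 4.59 ± 0.49 on the log2 scale from NPC to NB1 (edgeR adjusted p = 3.87e-11; 5.32 without w2) and by 1.84 ± 0.26 from NB1 to GCimm1 (adjusted p = 2.45e-07), each in 3 of 3 libraries. Later steps were not called.

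In mature cells Cntnap5b depended on the library. GCyoung held 673 CPM in w4 and 675 CPM in w8, but GCmat1 held 429, 1099 and 474 CPM in w1, w4 and w8, and GCmat2 948 CPM in w4 and 584 CPM in w8. From GCyoung to GCmat1 the log2 ratio was 0.71 within w4 and −0.51 within w8, and the fitted value was −0.02 ± 0.29. At the same pseudo-time, from 26.36 to 29.00, GCmat1 held 1127 CPM in w4 and 558 CPM in w8, while GCyoung held 544 and 556 CPM. In the next bin, up to 31.64, GCmat1 held 1023 CPM in w4 and 487 CPM in w8. Sexes differed in number between these libraries (2995 female and 659 male nuclei in w4, 419 and 2650 in w8). In GCmat1, female and male nuclei held 1100 and 1120 CPM in w4 and 474 and 481 CPM in w8. The rise of Cntnap5b from NB1 to GCmat1 of 1.63 ± 0.29 (edgeR adjusted p = 5.84e-06) fell to 0.77 (adjusted p = 0.0688) without w4. Week and library cannot be told apart, since w4 was 1 pool.

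Cntnap5c was the rarest member, with 897 UMIs in all kept nuclei. It stood at 42.5, 3.88 and 6.66 CPM in GCimm2 of w2, w4 and w8, at 4.94 and 4.88 CPM in GCyoung of w4 and w8, and at 19.2, 16.1 and 14.4 CPM in GCmat1 of w1, w4 and w8. The peak was held by w2. From GCimm1 to GCimm2 the call (1.70 ± 0.35 on the log2 scale, edgeR adjusted p = 0.000384) had 1 library higher and 1 lower. Without w2 the fitted value was −0.63. The earlier rise from NB1 to GCimm1 of 2.24 ± 0.52 (adjusted p = 0.00115) was 1.81 (adjusted p = 0.278) without w2. From GCyoung to GCmat1 the change was 1.66 ± 0.37 (adjusted p = 0.00247), higher in 2 of 2 libraries, and 1.68 (adjusted p = 0.222) without w4. GCmat2 held 3 UMIs against 425 in GCmat1, a ratio of 7.57 with a counting interval of 2.57 to 36.9; the call (adjusted p = 0.00504) was lost without w8 (adjusted p = 0.106). DESeq2 called none of these 4 steps of Cntnap5c (adjusted p from 0.0845 to 0.542).

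Cntnap2, the Caspr protein that gathers potassium channels along axons, peaked in GCimm2. RGL held 63.9, 97.2, 67.0 and 134 CPM in the 4 libraries, NB1 144, 178 and 287 CPM and NB2 106, 102 and 102 CPM in w1, w2 and w4. The NB1 value of w4 rests on few nuclei, since 30 male nuclei held 879 CPM and 93 female nuclei 102 CPM. GCimm1 held 122, 200.5 and 245 CPM in w1, w2 and w4, and GCimm2 734, 907 and 1399 CPM in w2, w4 and w8, with no overlap. GCyoung stood at 401 and 478 CPM and GCmat1 at 263, 187 and 255 CPM, again without overlap, and GCmat2 at 453 and 601 CPM. Cntnap2 rose from NPC to NB1 by 2.47 ± 0.31 on the log2 scale (edgeR adjusted p = 5.15e-09) and from GCimm1 to GCimm2 by 2.17 ± 0.20 (adjusted p = 3.65e-12). Its change was −0.98 ± 0.21 to GCyoung (adjusted p = 0.000359). The change of −0.84 ± 0.21 to GCmat1 (adjusted p = 0.00966) was −0.64 without w4 and −0.90 without w8, both uncalled (DESeq2 adjusted p = 0.603), and the rise of 1.04 ± 0.22 to GCmat2 (adjusted p = 0.000612) was 0.98 without w8 (adjusted p = 0.0777) and missed the threshold with DESeq2 (adjusted p = 0.0691).

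Cntnap2 was uneven inside GCyoung. Within that cluster the level was 705 CPM between pseudo-times 23.73 and 26.36 and 238 CPM in the next bin, and both libraries showed it (687 and 239 CPM in w4, 812 and 228 CPM in w8). Cntn6 stood at 43.1 and 5.11 CPM in the same bins, whereas Cntn1 stood at 779 and 722 CPM. Earlier, the level of Cntnap2 in NPC was called lower than in RGL by 1.23 ± 0.33 (log2 fold change −1.23, edgeR adjusted p = 0.00288), in 2 of 3 libraries. That call was lost without w1 (−0.76) and without w2 (−1.09). Cntn1 was called lower as well, at −1.74 ± 0.55 from RGL to NPC (adjusted p = 0.0116), in 2 of 3 libraries, and missed the threshold without w2 (−1.14, adjusted p = 0.24). The rise of Cntnap2 from NB2 to GCimm1 (0.81 ± 0.22, adjusted p = 0.0114) was uncalled without w2 and without w4 (0.65 each) and with DESeq2 (adjusted p = 0.134).

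Cntnap4, known from synapses of inhibitory and dopaminergic neurons, marked neuroblasts and immature cells. NPC held 12.02, 12.3 and 0 CPM, NB1 117, 102 and 94.1 CPM, NB2 176, 193 and 205 CPM and GCimm1 170, 154 and 102 CPM in w1, w2 and w4. GCimm2 of w2, w4 and w8 held 93.8, 75.1 and 140 CPM, GCyoung 10.1 and 16.0 CPM in w4 and w8, and GCmat1 0, 7.49 and 2.65 CPM in w1, w4 and w8. NB2 lay above NB1 in every library, and GCyoung below every GCimm2 value. From GCimm1 to GCimm2 the change of −0.38 ± 0.19 on the log2 scale was not called. Cntnap4 rose by 3.54 ± 0.41 from NPC to NB1 (log2, edgeR adjusted p = 4.42e-10; 5.64 with 2000 UMIs drawn per nucleus) and by 0.78 ± 0.18 from NB1 to NB2 (adjusted p = 0.0064), the latter uncalled without w1 (0.92, adjusted p = 0.0988) and without w2 (0.66, adjusted p = 0.309) and with DESeq2 (adjusted p = 0.471). It changed by −2.52 ± 0.26 from GCimm2 to GCyoung (adjusted p = 9.59e-11) and by −1.51 ± 0.34 to GCmat1 (adjusted p = 0.0025), which was −0.54 (adjusted p = 0.914) without w8 and −2.47 without w4, and which DESeq2 did not call (adjusted p = 0.127). From NB1 to GCmat1 it was the only member called lower, at −3.84 ± 0.33 (adjusted p = 1.75e-14; −4.87 without w4 and −3.02 without w8).

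**Figure D5:**
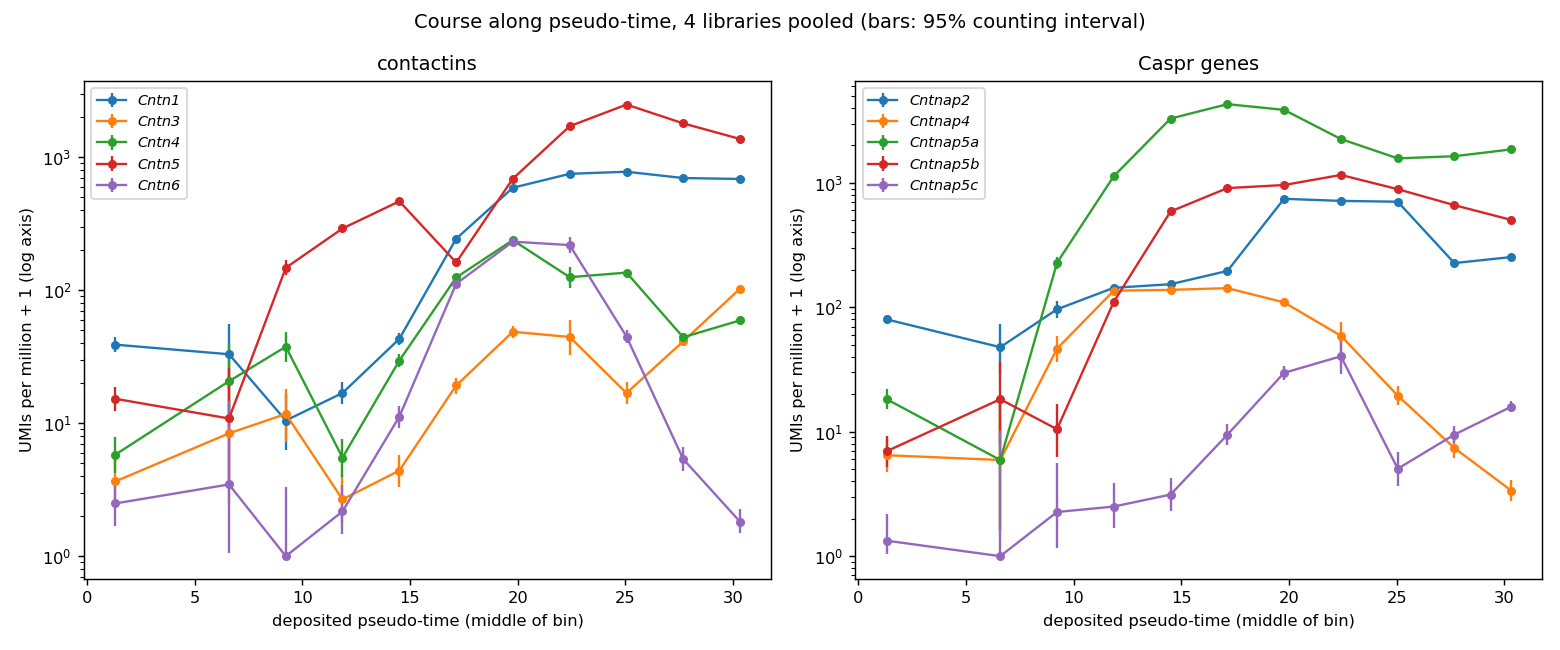
Level (CPM + 1, log axis) along the authors' pseudo-time in 12 bins of equal width, all libraries pooled, for contactins (left) and Caspr genes (right); bins with fewer than 20 nuclei are left out. Cntnap5a climbs from 17.3 CPM in the first bin to 4290 CPM in the seventh, Cntn5 reaches 2494 CPM in the tenth, and Cntn6 falls from 231 CPM in the eighth to 0.82 CPM in the last.

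Along pseudo-time the members reached their highest bins, libraries pooled, at different points. Cntnap5a was highest between 15.82 and 18.45 (4290 CPM), in nuclei of which 98.4% were GCimm1, and Cntnap4 was highest in the same bin (142 CPM), although no bin was its highest in 2 libraries alike. Cntn4 (237 CPM), Cntn6 (231 CPM) and Cntnap2 (744 CPM) were highest in the next bin, mainly GCimm2. Cntnap5b (1157 CPM) and Cntnap5c (39.4 CPM) had their pooled maximum 1 bin later, in 90 nuclei, 72 of them from w2, and this place rests on that library. Cntnap5b was highest 1 bin earlier in w4 (1245 CPM) and w8 (1356 CPM), and Cntnap5c in the last bin in both (14.5 and 14.9 CPM). Cntn1 (778 CPM) and Cntn5 (2494 CPM) were highest between 23.73 and 26.36, in GCyoung, and Cntn3 in the last bin (102 CPM), in GCmat1.

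Set end to end, neuroblasts and mature cells differed most in Cntn3 and Cntn1 by the fitted values. NB1 and GCmat1 shared only w1, where GCmat1 held 17 nuclei, and w4. Of 3356 GCmat1 nuclei, 2927 came from w8, which held 0 NB1 nuclei, so cluster and week cannot be fully told apart. Pooled levels of Cntnap5c were 1.47 CPM in NB1 and 14.6 CPM in GCmat1. From NB1 to GCmat1 the log2 fold change was 5.80 ± 0.36 for Cntn3 (edgeR adjusted p = 1.49e-19), 5.06 ± 0.31 for Cntn1 (adjusted p = 5.61e-20) and 4.98 ± 0.60 for Cntnap5c (adjusted p = 9.71e-10; 3.42 without w2). Cntn4 rose by 2.24 ± 0.30 (adjusted p = 1.14e-08; 2.90 without w4) and Cntn5 by 2.00 ± 0.26 (adjusted p = 6.05e-09). Cntnap5a had a fitted change of 0.05 ± 0.26 that was not called, while its level was lower in GCmat1 in both libraries that held both clusters, and Cntnap2 changed by 0.44 ± 0.22, also not called (0.75, adjusted p = 0.0468, without w4).

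Shares of nuclei with a UMI were also taken at 2000 UMIs per nucleus, since depth differed between clusters. Cntn5 was found in 35.8% of NB1 but 10.1% of NB2 nuclei, and in 94.7% of GCyoung nuclei (44.3%, 13.6% and 99.9% undrawn), against 2.22% of Oligo (4.44% undrawn). Cntn6 was found in 29.3% of GCimm2 and 0.566% of GCmat1 nuclei (52.8% and 1.34% undrawn). Cntnap4 was found in 23.0% of NB2 nuclei (37.6% undrawn) and Cntnap2 in 63.1% of GCimm2 nuclei (84.2% undrawn). In Oligo, Cntnap2 was found in 4.44% of nuclei and Cntn6 and Cntnap4 in 0%, drawn or undrawn. In OPC, Cntn1 was found in 90.8% and Cntn4 in 87.0% of nuclei (98.5% and 97.7% undrawn).

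Clusters were ordered by pooled level. Library values of the top cluster lay above those of the next for Cntn1 and Cntn4 (OPC), Cntn5 (GCyoung), Cntnap2 (GCimm2), Cntnap4 (NB2) and Cntnap5a (GCimm1). The fit tested only some of these pairs and called none of them. The log2 fold change was −0.32 ± 0.27 for Cntn5 (GCyoung to GCmat1). It was −0.21 ± 0.19 for Cntnap4 (NB2 to GCimm1) and −0.30 ± 0.25 for Cntnap5a (GCimm1 to GCimm2). For Cntn3 (Oligo then OPC), Cntn6 (OPC then GCimm2), Cntnap5b (GCimm2 then GCimm1) and Cntnap5c (GCimm2 then GCmat1) the library ranges of the first pair overlapped. Along the whole order of 13 clusters, 6 of 12 neighbouring pairs overlapped for Cntn5 and Cntnap5a, and 9 or 10 of 12 for each other member.

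Against RGL, 4 contactins were high in OPC. OPC held 1994, 1284, 1396 and 1576 CPM of Cntn1 in w1, w2, w4 and w8, and 1641, 1211, 1321 and 1582 CPM of Cntn4. Cntn6 stood at 199, 321, 351 and 396 CPM and Cntn3 at 99.7, 63.2, 132 and 134 CPM. For Cntn1 and Cntn4 every OPC library lay above every library of any other cluster tested. Cntn5, whose own highest cluster was GCyoung, stood at 0, 9.73, 37.6 and 5.57 CPM in OPC. From RGL to OPC, 5 members were higher and 1 lower of 9 tested, against 29.7% of 11548 genes (14.5% higher, 15.2% lower).

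The size of these differences was large. From RGL to OPC the log2 fold change was 8.31 ± 0.29 for Cntn4 (edgeR adjusted p = 4.33e-31), 7.72 ± 0.35 for Cntn6 (adjusted p = 2.07e-25), 5.49 ± 0.46 for Cntn3 (adjusted p = 7.29e-15) and 5.26 ± 0.29 for Cntn1 (adjusted p = 2.47e-22). Cntn4 was at 7.72 without w1 and 8.93 without w4. Cntnap5b was the only Caspr gene called higher, by 4.21 ± 0.48 (edgeR adjusted p = 1.8e-10, and 4.81 without w4). It went from at most 14.7 CPM in any RGL library to 99.7, 68.1, 119 and 128 CPM in OPC. Cntnap4 changed by 1.54 ± 0.74 (edgeR adjusted p = 0.118), higher in 3 of 4 libraries, and was not called. Under alternatives Cntnap4 was called, among them DESeq2 (1.72, adjusted p = 0.0292) and edgeR without w2 (2.25, adjusted p = 0.0445). Cntnap2 was lower, at −1.22 ± 0.35 (adjusted p = 0.00539), with 23.0, 34.1, 31.3 and 50.1 CPM in OPC. Cntnap5c had 0 UMIs in all 4 OPC libraries, which allows up to 4.44 CPM.

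In Oligo 3 of these contactins were far lower. Cntn1 stood at 150, 250 and 330 CPM in Oligo of w2, w4 and w8, and the change from OPC was −2.96 ± 0.38 (log2, edgeR adjusted p = 5.45e-09). Cntn4 stood at 18.8, 26.3 and 14.98 CPM, a change of −6.43 ± 0.49 (adjusted p = 3.26e-16). Cntn6 had 0 UMIs in Oligo against 324 CPM in OPC, so that it was at least 23.7-fold lower, and Cntnap5b had 1 UMI, a ratio of 22.4 with a counting interval of 3.90 to 899. Cntn3 alone of the 4 contactins was not called (−0.41 ± 0.51), with 150, 52.6 and 89.9 CPM in Oligo. From OPC to Oligo 4 members were lower and 0 higher of 9 tested, against 20% of genes (6.7% higher, 13.2% lower). The Oligo cluster holds 45 nuclei. In Peri, Cntn1 stood at 153 CPM in w1 and 14.1 CPM in w2, on 15 and 3 UMIs, and Cntn3 at 20.3 and 23.6 CPM, on 2 and 5 UMIs. Every other member was at or below 9.48 CPM there, pooled over libraries.

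The families' other 3 genes were taken for comparison. Cntn2, a contactin of myelinated fibres, stood at 244, 118 and 389 CPM in Oligo of w2, w4 and w8 and had 0 UMIs in OPC and in Astro. In the lineage it had 2 UMIs in NPC, stood at 22.2 CPM in NB1, pooled over libraries, reached 53.7, 56.5 and 40.0 CPM in GCimm2 and dropped to 4.12 and 4.88 CPM in GCyoung (−3.42 ± 0.32 on the log2 scale, edgeR adjusted p = 4.41e-12). Cntnap1, the Caspr protein of the contact between axon and myelin, rose from GCimm2 to GCyoung by 1.67 ± 0.31 (adjusted p = 3.7e-05), to 24.0 and 22.3 CPM. Cntnap3 stayed at or below 5.08 CPM in every cluster, pooled over libraries, and was too low to test.

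A list of 27 known binding partners and associated proteins, of which 26 were tested, was followed in the same fits. From NPC to NB1, 10 were higher and 7 lower, against 14.7% and 14.6% of all genes. The largest changes were in Chl1, an adhesion molecule of the L1 family (5.25 ± 0.33 on the log2 scale, edgeR adjusted p = 6.74e-19), Tnc, a matrix protein of progenitors (−5.09 ± 0.59, adjusted p = 4.56e-10), and Tnr, a matrix ligand of contactins (4.96 ± 0.45, adjusted p = 1.91e-13). From NB1 to GCimm1, 5 were higher and 4 lower (all genes 7.76% and 4.75%), with Tnr again up (2.17 ± 0.22, adjusted p = 1.68e-11) and the receptor Notch1 down (−2.11 ± 0.33, adjusted p = 1.99e-06). From GCimm1 to GCimm2, 4 were higher and 1 lower (6.52% and 2.91%), led by Lgi1, a secreted synaptic protein (1.54 ± 0.21, adjusted p = 1.11e-07). From GCimm2 to GCyoung, 9 were higher and 2 lower (9.27% and 9.62%), led by the cytoskeletal linker Epb4.1l3 (1.99 ± 0.37, adjusted p = 4.09e-05) and by L1cam, which was lower (−1.88 ± 0.23, adjusted p = 4.62e-09). From GCyoung to GCmat1, 0 were higher and 2 lower (1.6% and 2.25%), of which Epb4.1l2 changed by −2.15 ± 0.34 (adjusted p = 1.02e-05).

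In the remaining comparisons of the lineage the counts of the 26 partners, with the shares of all genes in brackets, were 3 higher and 8 lower from RGL to NPC (13.7% and 15.9%), 3 and 2 from NB1 to NB2 (1.81% and 1.13%) and 4 and 3 from NB2 to GCimm1 (4.53% and 3.06%). They were 2 and 2 from GCmat1 to GCmat2 (3.01% and 4.28%) and 12 and 4 from NB1 to GCmat1 (20.2% and 19.9%). From Astro to RGL 6 were higher and 8 lower (4.77% and 4.82%). In glia, 11 were higher and 5 lower from RGL to OPC (14.5% and 15.2%), led by Tnr (8.65 ± 0.27 on the log2 scale, edgeR adjusted p = 4.58e-33) and by the receptor Notch2, which was lower (−7.62 ± 0.37, adjusted p = 5.05e-25). From OPC to Oligo, 5 were higher and 14 lower (6.7% and 13.2%), with Ptprz1, a receptor phosphatase that binds contactins, Lgi1 and Tnr among the latter.

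Genes with the most similar course over the 13 clusters were ranked by Pearson's r of log2(CPM + 10) among 11203 genes with at least 20 CPM in 1 cluster. The points share libraries and depth, and r is given as a description. For Cntn5 they were Unc5a, a netrin receptor (r = 0.96), and Scn3b, a sodium channel subunit (r = 0.958). For Cntnap2 the first was Dab1, an adaptor of the reelin pathway (r = 0.956), for Cntnap4 Slco5a1 (r = 0.9745), for Cntnap5a Cacng2, an AMPA receptor partner (r = 0.983), and for Cntnap5b Gm20642 (r = 0.996). Cntn1 was followed most closely by Map3k5 (r = 0.928), Cntn3 by Grb14 (r = 0.905), Cntn4 by Gm2824 (r = 0.914), Cntn6 by Kctd8 (r = 0.919) and Cntnap5c by Tdrd5 (r = 0.9545). Between members, r was highest for Cntnap5a and Cntnap5b (0.935), followed by Cntn5 and Cntnap2 (0.899). Next came Cntn5 and Cntnap5b (0.886), Cntnap2 and Cntnap5b (0.882), Cntn5 and Cntnap5a (0.864), and Cntn4 and Cntn6 (0.856). The lowest was −0.277, for Cntn3 and Cntnap4.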

How the data were processed

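Nuclei of 4 libraries (10x Genomics single-nucleus RNA-seq, 1 per week after TAM) were analysed. The authors aligned reads with STARsolo 2.7.4a (submitters' processing notes) to the mouse genome mm10 and deposited raw UMI counts per feature and barcode, from exonic and intronic reads without multimappers. The authors also deposited a table of log2 normalized values with library, cluster and pseudo-time lines, of which only these lines were used. In it 9 members have a line of their own and Cntnap5a has none. The study's methods drop features detected in a very large share of nuclei, and Cntnap5a had a UMI in 83.5% of kept nuclei. Whether that filter removed Cntnap5a was not tested. Sex was called here per nucleus, male where Ddx3y, Uty and Eif2s3y held more UMIs than Xist and Tsix, female where fewer. The other 1221 nuclei had no sex call. Of 17046 barcodes, 14367 have a cluster and were kept. UMIs were summed per library and cluster (at least 10 nuclei) and fitted with edgeR 4.0.16 (quasi-likelihood, TMM, cluster and library terms, filterByExpr, R 4.3.3), in 1 fit for the trajectory with Astro (29 sums, 13513 genes) and another over all clusters (38 sums, 11548 genes); a call needed a 1.5-fold change or more and an adjusted p (Benjamini-Hochberg) no higher than 0.05. Each library is 1 pool of mice, so the p-values measure the spread between sums of pools of different weeks. Levels are CPM with exact Poisson 95% intervals; shares were also taken after drawing 2000 UMIs per nucleus (141 shallower nuclei left out). A count of 0 was read as at most 3 UMIs. Doublets were not called again here. Sequences came from the GRCm38 annotation and RefSeq (7 of 10 members had a promoter). Alternatives were DESeq2 1.42.0, RLE factors, other filters, nuclei of 1 sex and leaving out each library. The fit was tested on simulated data. In them each unchanged gene had the same mean in all clusters, all genes had the same spread, and there was no effect of library or week. Recovery in the real sums may therefore be lower. False calls numbered 1 to 8 per comparison. Of 4-fold changes it recovered 31.3% from OPC to Oligo, 60.6% from Astro to RGL and 75.2% to 100% in other comparisons. Of 2-fold changes it recovered 4.95% from OPC to Oligo, 21.8% from Astro to RGL and 33% to 78.8% in other comparisons. The Cre driver allele is not reported here. The members, the list of partners and the tests were chosen with earlier results of these data known. Of the partners, at most 3 called genes with the largest changes per comparison are named; for each member up to 2 genes of the most similar course are named.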

Additional observations from a re-analysis of the deposited data

Results flagged for a closer look

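Taken within each library, 3 changes ran in opposite directions in different libraries, with counting intervals on either side of 0. The differences between libraries were not tested. For Cntnap5b the log2 ratio from GCyoung to GCmat1 was 0.71 in w4 and −0.51 in w8, and from GCmat1 to GCmat2 it was −0.21 in w4 and 0.30 in w8. For Cntnap2 the log2 ratio from NB1 to GCmat1 was 0.87 in w1, where GCmat1 holds 17 nuclei, and −0.62 in w4. In w4 the NB1 level was 879 CPM in 30 male and 102 CPM in 93 female nuclei, while GCmat1 held 367 CPM in male and 164 CPM in female nuclei, so that the w4 ratio was negative in male nuclei and positive in female nuclei.

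The 2679 barcodes that carry no cluster also held UMIs of every member. Over the 4 libraries their levels were 630 CPM for Cntn1, 75.8 CPM for Cntn3, 149 CPM for Cntn4, 666 CPM for Cntn5 and 23.9 CPM for Cntn6. For the Caspr genes the levels were 283 CPM for Cntnap2, 31.0 CPM for Cntnap4, 1124 CPM for Cntnap5a, 837 CPM for Cntnap5b and 26.6 CPM for Cntnap5c. Most of these barcodes (1628) came from w4, and levels differed between libraries. In w1, w2, w4 and w8, Cntnap5b stood at 294, 500, 1041 and 443 CPM and Cntnap2 at 582, 597, 183 and 274 CPM. Cntnap5c stood at 70.5, 75.3, 13.5 and 11.8 CPM. The study's methods leave out doublets, low-quality nuclei and, at week 4, nuclei of a possible outlier male. Which barcodes fall under which reason was not tested.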

How the results depend on the processing

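Of 67 called changes of members, 41 kept their call under every alternative run and 26 lost it under at least 1, most often with DESeq2 (17), male nuclei alone (11), w2 left out (11), w4 left out (9) and female nuclei alone (8). Among these calls the only change of sign was Cntnap5c from GCimm1 to GCimm2, −0.63 without w2. Over the libraries left out it ran from −0.63 to 2.20. In 24 instances over all alternatives, a change not called in the main fit was called. Counts of called members that moved by over 1.5 times were 2 from Astro to RGL with female nuclei alone, 1 from NB1 to NB2 without a library term, with DESeq2 and with either sex alone, 5 from NB2 to GCimm1 with female nuclei alone, and 3 from GCimm1 to GCimm2 with DESeq2. From GCyoung to GCmat1 the count was 3 without a library term, thinned to 2000 UMIs or with male nuclei alone, and 1 with DESeq2. From GCmat1 to GCmat2 it was 2 with DESeq2 and with male nuclei alone. Leaving out 1 library gave 1 to 5 from RGL to NPC, 1 to 3 from NB1 to NB2, 5 to 8 from NB2 to GCimm1, 3 to 6 from GCimm2 to GCyoung, 3 to 5 from GCyoung to GCmat1 and 3 to 6 from GCmat1 to GCmat2. With 1 library left out, calls over all genes also fell by over 1.5 times as a share. Among these, counts higher and lower were 75 and 27 from NB1 to NB2, 1330 and 1220 from NPC to NB1 and 354 and 459 from Astro to RGL (without w1), 470 and 310 from NB1 to GCimm1 and 314 and 228 from NB2 to GCimm1 (without w2), 1960 and 1545 from NB1 to GCmat1 and 103 and 113 from GCyoung to GCmat1 (without w4), and 85 and 134 from GCyoung to GCmat1 and 207 and 205 from GCmat1 to GCmat2 (without w8). The causes were not tested. Calls that held but moved by over 1.5 times with 2000 UMIs drawn were Cntn1 (−2.78) from RGL to NPC, Cntnap4 from NPC to NB1 (5.64) and from NB1 to GCmat1 (−4.45), Cntn3 from GCmat1 to GCmat2 (−4.28), Cntn4 (7.70) and Cntnap2 (−2.21) from RGL to OPC, and Cntn4 from OPC to Oligo (−7.31). Without a library term they were Cntn6 from NB2 to GCimm1 (4.63) and Cntnap5c from NB1 to GCmat1 (3.89, and 4.11 with DESeq2). Fitted values of Cntn6 and Cntnap5b from OPC to Oligo, near 0 UMIs in Oligo, moved as well, and nuclei of 1 sex alone moved further calls by that much. From OPC to Oligo, sums of at least 20 nuclei and female nuclei alone could not be fitted. The median of all genes from Astro to RGL was 0.27 with TMM and 0.07 with RLE factors, with 644 higher and 651 lower against 455 and 854 calls. The library term of the fits pairs clusters within libraries, and weeks had no replicates to pair. Depth limits Astro (67 nuclei), Oligo (45), the small sums of NB2 in w4 (18), NPC in w4 (22) and GCimm2 in w8 (28), and members under the floor.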
